A study of Mus musculus with 22 samples.

Results

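The genes described here are 36 genes of chromatin corepressor complexes, picked by name out of 21887 protein-coding genes and examined for what was bound or acetylated on them in mouse regulatory T cells (Treg cells, which restrain immune responses). They comprise 13 genes of the NuRD complex, 6 of the Sin3 complex, 4 of the CtBP and CoREST group, 3 of the NCoR complex, 4 of Polycomb repressive complex 2 (PRC2), 3 Groucho genes and 3 class IIa histone deacetylase genes. A peak was counted for a gene when it overlapped the gene body extended by 10 kb at either end, and no pair of these 36 windows overlapped. Histone deacetylases remove acetyl groups that coactivators such as p300 add. NuRD joins a deacetylase core to the chromatin remodellers Chd3 and Chd4, Sin3 builds on the same deacetylases, and PRC2 methylates histone H3 at lysine 27, the residue that is acetylated at active genes. Ikaros, the zinc finger factor encoded by Ikzf1, is known to recruit NuRD, Sin3 and CtBP. The genes of these complexes are therefore genes of its partners, and whether Ikaros also binds them is a separate matter.

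The lists came from chromatin immunoprecipitation and sequencing of Treg cells taken from spleen and lymph nodes, stimulated for 1 h with Cell Stimulation Cocktail and fixed with 1% formaldehyde, for 30 min for the factors and 5 min for the histone mark. Cells with the genotype IkE5-deletion (written IkE5) were set against wild-type (WT) cells. The labels do not expand IkE5, give no age of the animals and do not say whether different libraries came from different animals, and how much Ikaros the IkE5 cells retain was not measured here. Foxp3 (the factor that defines Treg cells), p300, NFAT1 (a calcium-activated factor) and acetylated lysine 27 of histone H3 (H3K27ac, which marks active promoters and enhancers) have 2 lists per genotype, and Ikaros has 2 lists in WT cells alone.

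The lists give positions without a score, so a site is present or absent in a library. The Foxp3 lists held 21619 and 17265 peaks in IkE5 cells, against 20608 and 16526 in WT cells, and the p300 lists held 11670 and 8971 against 11457 and 8775. The NFAT1 lists were shorter in IkE5 cells, with 4908 and 3435 peaks, against 7825 and 6850 in WT cells. The H3K27ac lists held 47982 and 37152 peaks in IkE5 cells, against 53032 and 35272 in WT cells. Read depth is unknown. A shorter list can reflect depth, enrichment, the calling threshold or weaker binding, and in bulk cells a change in the mix of cells cannot be told apart from a change per cell. Foxp3 and the other Treg markers carried H3K27ac in every library. H3K27ac over 7 Treg and T cell genes added up to 288 and 240 kb in IkE5 cells, against 276 and 193 kb in WT cells. Over 8 myeloid genes it was 19.4 and 16.6 kb in IkE5 cells, against 23.1 and 16.1 kb in WT cells, with Adgre1, Csf1r and Lyz2 at 0 in every library. The other 5 myeloid genes carried H3K27ac in every library, save Cebpa in WT library 2. Over 8 CD8 and natural killer cell genes it was 16.1 and 12.1 kb in IkE5 cells, against 17.9 and 9.89 kb in WT cells, with Ncr1 at 0 in every library. Cd8a was at 0 in both IkE5 libraries, Gzma in these and WT library 2, Prf1 in IkE5 library 2 and Eomes in WT library 2. H3K27ac regions in both IkE5 lists and neither WT list were found at 4 of the 7 Treg and T cell genes (Cd3e, Cd4, Foxp3 and Il2ra). The share of all genes with a region was 11.2%. Regions in both WT lists and neither IkE5 list were found at Cd8a and at the myeloid gene Itgam, against 13.3% of all genes with a region. The part of such cells in the results was not tested.

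Ikaros peaks were found at nearly every corepressor gene of WT cells. The lists had an Ikaros peak at 34 and 36 of the 36 genes, and at 92.0% and 96.9% of the 12714 genes with at least 1000 bp of H3K27ac. Against that background a peak at a corepressor gene is the usual state of an acetylated gene. Hdac4, which encodes a class IIa deacetylase that shuttles between cytoplasm and nucleus, had the most, with 11 and 12 Ikaros peaks. Gatad2a, a structural NuRD subunit, had 5 and 8. Hdac7, a class IIa deacetylase gene of thymocytes, had 5 and 4, and Tbl1xr1, an exchange factor of the NCoR complex, had 3 and 6. Tle4, a Groucho corepressor gene, had 4 in each list. These are long windows, and the number of peaks was not corrected for length. Sin3b, a scaffold of the Sin3 complex, and Ctbp2, a CtBP corepressor gene, had Ikaros peaks in 1 list (3 at Sin3b and 1 at Ctbp2) and none in the other.

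**Figure D1:**
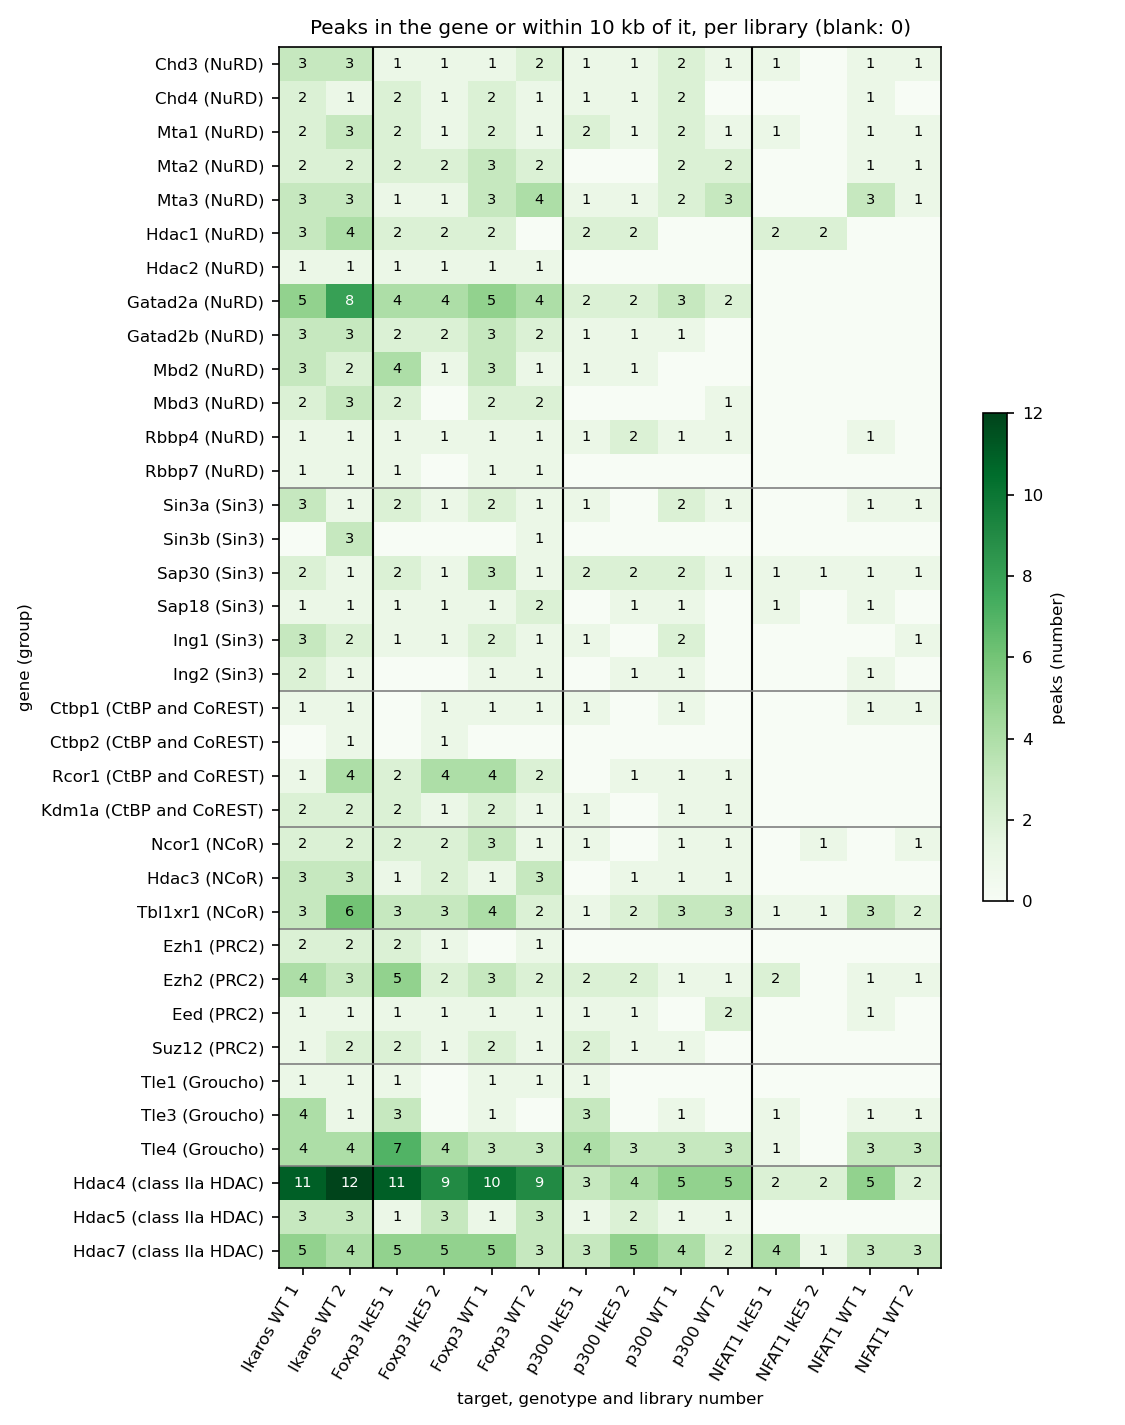
Number of peaks in each of the 36 genes or within 10 kb (rows, grouped by complex) in each Ikaros, Foxp3, p300 and NFAT1 library (columns, IkE5 left of WT for each target). Hdac4 has the highest Ikaros counts, 11 and 12, and Hdac1 is the gene with NFAT1 peaks in both IkE5 lists and in neither WT list.

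Foxp3 was present at 26 of the 36 genes in all 4 of its libraries, and at none of the 36 was it missing from all of them. A Foxp3 peak was found at 32 and 30 genes in IkE5 cells, against 33 and 33 in WT cells. The p300 lists covered 25 and 22 genes in IkE5 cells, against 26 and 20 in WT cells, and 12 genes had p300 in every library. The NFAT1 lists covered 11 and 6 genes in IkE5 cells, against 18 and 15 in WT cells. The groups overlapped for p300 and not for Foxp3 or NFAT1. Of all 12714 genes with at least 1000 bp of H3K27ac, 85.4% and 86.2% had Foxp3 in IkE5 cells, against 85.7% and 84.8% in WT cells, which overlap. NFAT1 was at 22.8% and 16.4% of them in IkE5 cells, against 39.1% and 36.2% in WT cells, so its lower number was shared by all genes. H3K27ac was found at 35 genes in every library, and Ctbp2 was the exception, with no H3K27ac, p300 or NFAT1 peak in any list, 1 Foxp3 peak in 1 IkE5 library and none in the WT libraries.

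Relative to the length of each list, the corepressor genes held 0.233% to 0.475% of its peaks in the 4 targets mapped in both genotypes. They held 0.365% and 0.353% of the Foxp3 peaks of IkE5 cells, against 0.388% and 0.381% in WT cells, where both IkE5 shares lay below both WT shares (exact permutation test, 2-sided, p = 0.333, the smallest that 2 against 2 libraries allow). For p300 the shares were 0.383% ± 0.057 in IkE5 cells and 0.399% ± 0.016 in WT cells (SD, n = 2 each, exact permutation p = 1). For NFAT1 they were 0.290% ± 0.080 and 0.345% ± 0.054 (SD, n = 2 each, exact permutation p = 0.667), and for H3K27ac 0.464% ± 0.016 and 0.455% ± 0.0028 (SD, n = 2 each, exact permutation p = 1). The shares of p300, NFAT1 and H3K27ac overlapped between the genotypes, and no such test can reach 0.05 in this design. NFAT1 peaks at the 36 genes numbered 17 and 8 in IkE5 cells, against 30 and 21 in WT cells, so the lower number went with the shorter lists.

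Sites that separated the genotypes were taken as regions, the union of overlapping peaks of the 4 libraries of a target. A region is called IkE5-only when both IkE5 lists and neither WT list hold it, and WT-only in the reverse case. At least 1 such region was found at 15 of the 36 genes, 47 regions in all, and 21 genes had none. The share of all genes with such a region of any target was not counted. The length of the windows was not corrected for, so 15 cannot be read as many or few. The 21 are Chd3, Chd4, Mta1, Hdac2, Gatad2b, Mbd3, Rbbp4 and Rbbp7 of NuRD, Sin3b, Sap30, Sap18 and Ing1 of Sin3, Ctbp2 and Kdm1a, Hdac3 of NCoR, Ezh1, Eed and Suz12 of PRC2, Tle1, Hdac5 and Hdac7.

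For Foxp3, IkE5-only regions were found at 3 of 36 genes (Gatad2a, Hdac4 and Tle4) against 7.25% of all genes with a Foxp3 region. WT-only regions were found at 4 of 36 (Gatad2a, Hdac4, Ing2 and Mta3) against 6.31%. For p300, IkE5-only regions were found at 4 of the 31 genes with a p300 region (Ezh2, Hdac1, Mbd2 and Tle4) against 8.56%, and WT-only regions at 7 of 31 (Ezh2, Hdac4, Mta2, Mta3, Ncor1, Tbl1xr1 and Tle4) against 11.3%. For NFAT1, IkE5-only regions were found at 2 of 21 genes (Hdac1 and Hdac4) against 4.61%, and WT-only regions at 8 of 21 (Ctbp1, Hdac4, Mta2, Mta3, Sin3a, Tbl1xr1, Tle3 and Tle4) against 31.1%. For H3K27ac, IkE5-only regions were found at 5 of 35 genes (Ezh2, Gatad2a, Hdac4, Mta3 and Tbl1xr1) against 11.2%, and WT-only regions at 4 of 35 (Hdac4, Rcor1, Tbl1xr1 and Tle4) against 13.3%. All these shares rest on few genes, and no test of the list was made.

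Counted over whole genes, Foxp3 was in both IkE5 lists and in neither WT list at none of the 36 genes (2.22% of all genes with a Foxp3 peak), and in both WT lists alone at Ing2 (1.35%). The p300 lists had such a difference towards IkE5 cells at Hdac1 and Mbd2 (2 of 31, against 3.99%) and towards WT cells at Mta2 (1 of 31, against 5.57%). For NFAT1 it was Hdac1 towards IkE5 cells (1 of 21, against 1.87%) and Ctbp1, Mta2, Mta3 and Sin3a towards WT cells (4 of 21, against 22.0%). No corepressor gene had H3K27ac in both lists of 1 genotype and in neither list of the other (0.96% of all genes towards IkE5 cells and 1.01% towards WT cells).

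Counted over regions, 9 of the 18 NFAT1 regions found in both WT lists at these genes were missing from both IkE5 lists, against 40.6% of all such NFAT1 regions. The numbers were 8 of 27 for p300 (15.2% of all), 4 of 45 for Foxp3 (7.71%) and 5 of 117 for H3K27ac (11.7%). In the other direction, 3 of the 6 NFAT1 regions in both IkE5 lists were missing from both WT lists (15.6% of all), and 5 of 21 for p300 (17.2%), 4 of 37 for Foxp3 (9.87%) and 9 of 115 for H3K27ac (9.65%). Of the 9 WT-only NFAT1 regions, 4 overlapped an Ikaros peak of both lists, 4 of 1 list and 1 of neither. Among all WT-only NFAT1 regions of the genome 76.3% overlapped Ikaros in both lists. Of the 8 WT-only p300 regions 6 did so, against 75.4% in the genome.

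The regions of p300 and NFAT1 that differed coincided at 4 places, at Mta2, Hdac1 and Tle4, and in each of the 4 both factors differed in the same direction. How often such regions coincide and share a direction over the genome was not counted, so this may be their usual state. Mta2 encodes a NuRD subunit that holds the deacetylases. The promoters of Mta2 and Tle4 are shown because each has Ikaros in both WT lists and a WT-only p300 or NFAT1 region over its start. The promoter of Sap30, which encodes an adaptor of the Sin3 complex, is shown as the contrast, since 13 of the 14 factor lists had a peak over this window, the exception being WT library 2 of Foxp3. The sequences are RefSeq's, of GRCm38.p6, the assembly of mm10, from 250 bases before to 50 after the start, 5′ to 3′ on the strand of the gene. Capitals mark matches to the ETS core CCGGAAG in Mta2 and to the NFAT core TGGAAA in Sap30.
Mta2, chr19:8941670-8941969, plus strand: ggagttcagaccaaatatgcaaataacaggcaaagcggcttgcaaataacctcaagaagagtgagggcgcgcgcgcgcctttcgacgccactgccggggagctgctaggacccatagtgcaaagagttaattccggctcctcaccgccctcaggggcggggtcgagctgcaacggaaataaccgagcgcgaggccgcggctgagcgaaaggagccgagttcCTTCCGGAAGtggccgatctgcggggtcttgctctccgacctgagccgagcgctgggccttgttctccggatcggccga
Tle4, chr19:14598134-14598433, minus strand: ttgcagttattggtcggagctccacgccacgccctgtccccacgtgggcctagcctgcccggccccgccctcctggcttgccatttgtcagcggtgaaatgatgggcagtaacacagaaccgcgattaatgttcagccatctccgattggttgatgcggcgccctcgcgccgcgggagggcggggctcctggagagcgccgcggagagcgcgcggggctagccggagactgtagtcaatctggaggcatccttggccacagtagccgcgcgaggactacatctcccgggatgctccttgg
Sap30, chr8:57487811-57488110, minus strand: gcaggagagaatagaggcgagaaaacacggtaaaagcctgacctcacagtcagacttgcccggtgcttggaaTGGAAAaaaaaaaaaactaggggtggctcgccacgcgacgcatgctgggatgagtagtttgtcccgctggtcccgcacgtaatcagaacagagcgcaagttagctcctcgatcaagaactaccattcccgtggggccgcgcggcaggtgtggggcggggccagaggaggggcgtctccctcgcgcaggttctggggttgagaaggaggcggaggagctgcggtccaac

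The window of Mta2 holds the ETS core on both strands as a palindrome of overlapping matches, which begin at positions -29 and -26 from the start. The Sap30 window holds the NFAT core at position -178, and the Tle4 window holds none of the letters searched. The search covered the Ikaros core TGGGAA, the forkhead site TGTTTAC, the NFAT core TGGAAA, the ETS core CCGGAAG and the AP-1 site TGACTCA, on both strands. A promoter window was found for 31 of the 36 genes, 45 windows in all. The Ikaros core was in 6 of the 45 windows, against 24.5% of 21263 windows of all genes, the NFAT core in 4 against 19.3%, and the ETS core in 3 against 11.6%. The forkhead site was in 3 against 3.01% and the AP-1 site in 2 against 4.66%. A match or its lack describes these letters alone, not binding.

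The same 45 windows were covered by H3K27ac in 42 and 42 cases in IkE5 cells, against 40 and 41 in WT cells, while 47.4% to 49.6% of the windows of all genes were covered in a library. Ikaros peaks lay over 17 and 25 of them (30.7% and 36.6% of all windows). Foxp3 lay over 17 and 15 in IkE5 cells, against 17 and 17 in WT cells. For p300 the numbers were 11 and 7 against 13 and 8, and for NFAT1 they were 2 and 1 against 4 and 5. Most promoters of corepressor genes were thus acetylated in both genotypes. The counts of NFAT1, lower in IkE5 cells, and of H3K27ac, higher in IkE5 cells by 1 or 2 windows, did not overlap between the genotypes. Of all windows NFAT1 covered 2.38% and 1.35% in IkE5 cells, against 7.17% and 6.11% in WT cells, the same split as at these genes. For H3K27ac the shares of all windows were 48.9% and 48.5% in IkE5 cells, against 49.6% and 47.4% in WT cells, which overlap. At the corepressor genes its difference came from a Tbl1xr1 window missing in both WT lists and a Chd4 window missing in WT library 1. Over all windows the shares were 24.3% and 28.0% against 25.7% and 27.2% for Foxp3. They were 12.3% and 9.32% against 13.9% and 11.0% for p300, with overlap in both.

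At the start of Mta2, p300 at chr19:8941533-8942190 and NFAT1 at chr19:8941517-8942129 were present in both WT lists and in neither IkE5 list. Ikaros was there in both WT lists, and Foxp3 (chr19:8941530-8942149) and H3K27ac in all 4 libraries of each. The site also overlaps the neighbouring gene Eml3. A further p300 region, at chr19:8953557-8954099 and 1.26 kb beyond the gene, was likewise WT-only, and it lies over the start of Tut1. Thus Mta2 had no p300 peak in the IkE5 libraries and 2 in each WT library. H3K27ac covered 5.53 and 5.64 kb in IkE5 cells, against 6.54 and 5.01 kb in WT cells, so the groups overlapped. Lengths in kb, and overlap in them, are given unscaled here and below. The log2 differences were scaled to the total covered length of each library.

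**Figure D2:**
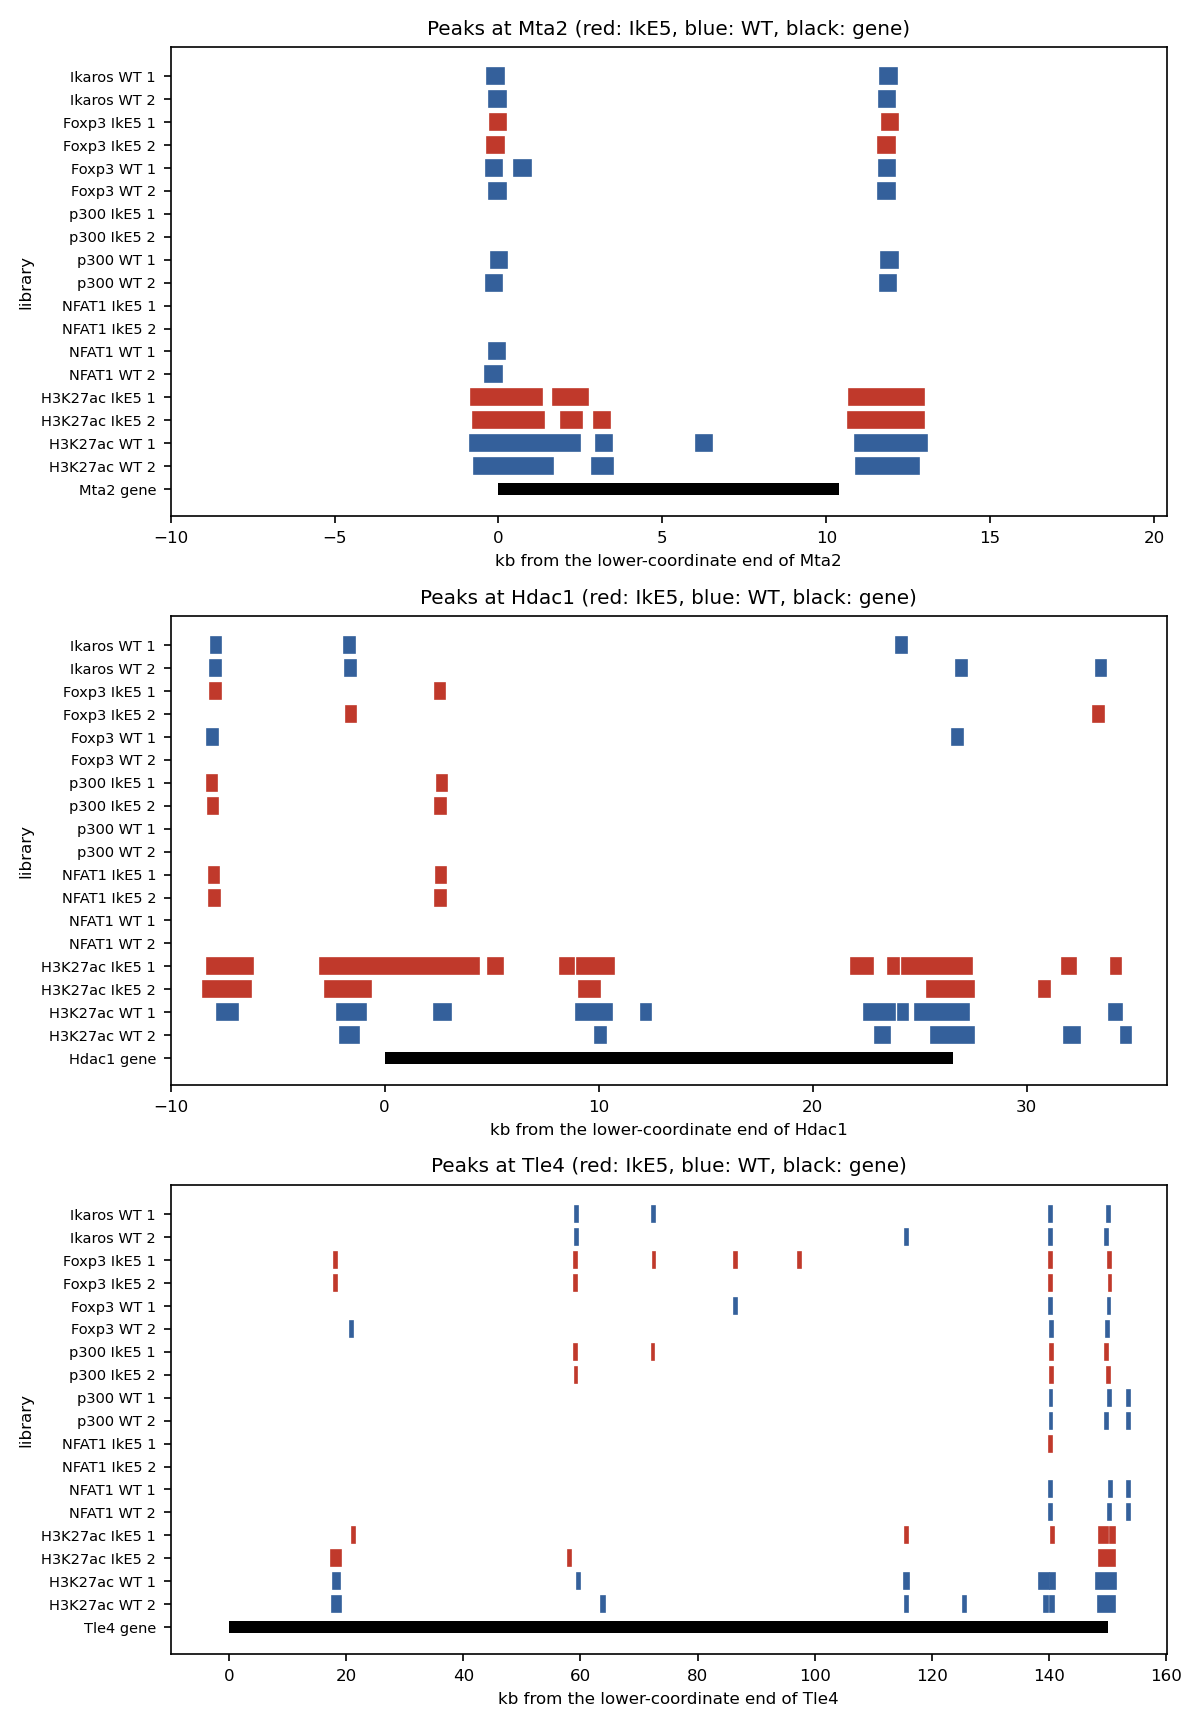
Peaks of every library (rows, bars to scale, IkE5 in red and WT in blue) at Mta2, Hdac1 and Tle4, against distance in kb from the lower-coordinate end of the gene (black bar). At the lower-coordinate end of Mta2 p300 and NFAT1 bars are in WT rows alone, whereas at Hdac1 all p300 and NFAT1 bars are in IkE5 rows.

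Hdac1, which encodes the class I deacetylase shared by NuRD, Sin3 and CoREST, showed the opposite arrangement. Both IkE5 lists had 2 p300 and 2 NFAT1 peaks there, and the WT lists had 0 of either. The first pair of regions, p300 at chr4:129507789-129508327 and NFAT1 at chr4:129507876-129508417, lies outside genes, 7.78 kb from Hdac1 and nearer to the start of Marcksl1. Ikaros was present there in both WT lists, and H3K27ac in both IkE5 lists and 1 WT list. The second pair, p300 at chr4:129518460-129519032 and NFAT1 at chr4:129518480-129518980, lies inside Hdac1, with no Ikaros peak. The nearest start known is again that of Marcksl1, 5.165 and 5.149 kb away, as no start of Hdac1 was available. An H3K27ac peak lay over this site in IkE5 library 1 and WT library 1 alone. The joined H3K27ac region around it was in all 4 libraries.

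H3K27ac over the Hdac1 window covered 18.6 and 8.13 kb in IkE5 cells, against 10.4 and 5.38 kb in WT cells. Before scaling, the first IkE5 library stood highest, and the second lay between the WT libraries. After scaling, both lay above both WT libraries, the second narrowly (13.260 against at most 13.251 on the log2 scale). The log2 difference was 0.63 ± 0.30 (SE), the highest of the 35 corepressor genes tested, and was not called (limma adjusted p = 0.439). It rested on 1 library: without IkE5 library 2 it was 1.08 and was called (limma adjusted p = 0.0283), and without IkE5 library 1 it was 0.19. The window takes in Marcksl1, a gene of an actin-binding protein, and one end of Lck, a kinase gene of T cell receptor signalling. In the same fit Marcksl1 had a log2 difference of 1.54 ± 0.37 (limma adjusted p = 0.102) and Lck one of -0.07. Inside Hdac1 itself the mark covered 11.4 and 2.22 kb in IkE5 cells, against 6.67 and 2.24 kb in WT cells, and the log2 difference was 0.32 ± 0.51.

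Tle4 differed in both directions. At its start an NFAT1 region (chr19:14598177-14598920) was WT-only, while Foxp3, p300 and H3K27ac were present in all 4 libraries. At 3.5 kb upstream p300 (chr19:14601405-14601909) and NFAT1 (chr19:14601444-14601952) were both WT-only, at a place with no Ikaros, Foxp3 or H3K27ac peak in any list. Deep in the gene, p300 (chr19:14507013-14507556) and Foxp3 (chr19:14506959-14507520) were IkE5-only over an Ikaros site of both WT lists, and another Foxp3 region (chr19:14465905-14466553) was IkE5-only without Ikaros. Counted over the window, NFAT1 had 1 and 0 peaks in IkE5 cells, against 3 and 3 in WT cells, and Foxp3 had 7 and 4 against 3 and 3.

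H3K27ac over Tle4 covered 4.11 and 4.78 kb in IkE5 cells, against 8.53 and 7.47 kb in WT cells. Both IkE5 libraries lay below both WT libraries. The log2 difference of -0.75 ± 0.23 (SE) was the lowest of the 35 genes tested, and it was not called over all genes (limma adjusted p = 0.172, unadjusted p = 0.0096). A WT-only H3K27ac region at chr19:14586376-14588062, 9.99 kb inside the gene, overlapped no factor peak. That call was lost with gaps of up to 500 bp joined and with H3K27ac peaks of at least 1000 bp. Tle3, a second Groucho gene, covered 5.40 and 4.94 kb in IkE5 cells, against 9.20 and 6.68 kb in WT cells, again without overlap (log2 difference -0.55 ± 0.20, limma adjusted p = 0.264). Its NFAT1 region at chr9:61370355-61370990, 1.34 kb from the gene, was WT-only. Tle1 covered 3.03 and 2.03 kb in IkE5 cells, against 2.06 and 2.94 kb in WT cells, and the groups overlapped. After scaling its log2 difference was -0.03 ± 0.27 (limma adjusted p = 0.998), smaller than its SE, so no direction is read from it.

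Among the other NuRD genes, Gatad2a had 4 IkE5-only H3K27ac regions inside the gene, each with no factor peak, at chr8:69942781-69943931, chr8:69944164-69944830, chr8:69957474-69958573 and chr8:69994214-69994783. They depended on how peaks were joined: with gaps of up to 500 bp bridged 1 was left, and with H3K27ac peaks of at least 1000 bp none was. The mark covered 31.6 and 28.7 kb in IkE5 cells, against 27.3 and 18.9 kb in WT cells. Both IkE5 libraries lay above both WT libraries, with a log2 difference of 0.36 ± 0.19 (limma adjusted p = 0.510). Foxp3 was IkE5-only at chr8:69952497-69953089 in the gene, without Ikaros, and WT-only at chr8:69902989-69903629, 3.44 kb beyond it over Tssk6, with Ikaros in both lists. Mbd2, which encodes a reader of methylated DNA that joins NuRD, had a p300 region in both IkE5 lists and in neither WT list, 2.85 kb outside the gene. Its H3K27ac covered 21.9 and 22.9 kb in IkE5 cells, against 20.9 and 12.2 kb in WT cells. The groups did not overlap, the higher WT library was close to the IkE5 ones, and the log2 difference was 0.44 ± 0.21 (limma adjusted p = 0.447).

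Mta3, a NuRD subunit gene related to Mta2, had WT-only regions of Foxp3 (chr17:83707679-83708481), NFAT1 (chr17:83706763-83707416) and p300 (chr17:83732096-83732608), all in the gene and in H3K27ac present in all 4 libraries. The Foxp3 call was lost when peaks had to overlap by at least 250 bp to be joined. The NFAT1 lists had 0 and 0 peaks at Mta3 in IkE5 cells, against 3 and 1 in WT cells, and the Foxp3 lists had 1 and 1, against 3 and 4. Neither pair of groups overlapped, but how many of all genes separate in this way was not counted. Its H3K27ac covered 12.7 and 7.11 kb in IkE5 cells, against 12.7 and 9.72 kb in WT cells, and an IkE5-only region lay 7.69 kb beyond the gene in Haao. That call was lost with gaps of up to 500 bp joined and with H3K27ac peaks of at least 1000 bp. Mta1, the third of these paralogues, had no genotype-only region. Its H3K27ac covered 6.32 and 6.71 kb in IkE5 cells, against 9.60 and 8.09 kb in WT cells, without overlap (log2 difference -0.41 ± 0.22, limma adjusted p = 0.509).

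The remodeller gene Chd3 had a Foxp3 and a p300 region inside the gene in all 4 libraries of each. At Chd4 the Foxp3 region of all 4 libraries lay 0.856 kb outside the gene, over the start of Nop2. The p300 peaks of Chd4 fell at different sites, none of them in both lists of a genotype, and WT library 2 had none. Chd4, the remodeller through which Ikaros is known to bind NuRD, had H3K27ac over 8.61 and 9.20 kb in IkE5 cells, against 8.80 and 7.36 kb in WT cells, and the groups overlapped (log2 difference 0.10 ± 0.22, limma adjusted p = 0.968). Hdac2, the paralogue of Hdac1, had 1 Ikaros peak and 1 Foxp3 peak in each list and no p300 or NFAT1 peak. Its H3K27ac covered 1.79 and 1.84 kb in IkE5 cells, against 1.89 and 2.09 kb in WT cells, without overlap (limma adjusted p = 0.968). The histone-binding subunit genes Rbbp4 and Rbbp7 had 1 Ikaros peak in each list. Rbbp7 covered 4.11 and 3.63 kb in IkE5 cells, against 3.17 and 2.80 kb in WT cells, without overlap (log2 difference 0.27 ± 0.20, limma adjusted p = 0.724). At Chd3, Gatad2b, Mbd3 and Rbbp4 the groups overlapped.

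In the Sin3 complex, Sin3a, the scaffold that holds the deacetylases, had a WT-only NFAT1 region 1.54 kb inside the gene (chr9:57073207-57073948), with Ikaros in 1 list and H3K27ac in all 4 libraries. NFAT1 was at Sin3a in 0 and 0 peaks in IkE5 cells, against 1 and 1 in WT cells. Ing2, a reader of methylated histone H3, had a WT-only Foxp3 region (chr8:47675761-47676276) 0.602 kb outside the gene with Ikaros in both lists. The gene had no Foxp3 peak in either IkE5 library and 1 in each WT library. H3K27ac over Sin3a and Ing2 overlapped between the genotypes. Sap30 had regions of p300 and NFAT1 over its start in all 4 libraries of each. A Foxp3 region was also in all 4 libraries, although the peak of WT library 2 lay outside the promoter window. Foxp3 was at chr8:57487594-57488812, p300 at chr8:57487499-57488873 and NFAT1 at chr8:57487664-57488311. Its H3K27ac covered 2.36 and 2.26 kb in IkE5 cells, against 2.06 and 1.89 kb in WT cells, without overlap (limma adjusted p = 0.941). Ing1, a paralogue of Ing2, covered 7.03 and 6.51 kb in IkE5 cells, against 5.67 and 6.50 kb in WT cells, without overlap and with a log2 difference of 0.10 ± 0.25. At Sin3b and Sap18 the groups overlapped.

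In the CtBP and CoREST group, Ctbp1, a corepressor that senses NADH, had a WT-only NFAT1 region 0.510 kb inside the gene (chr5:33274238-33274750) over Ikaros in both lists. Its NFAT1 lists had 0 and 0 peaks in IkE5 cells, against 1 and 1 in WT cells. Rcor1, which encodes CoREST, the scaffold of the demethylase Kdm1a, had a WT-only H3K27ac region (chr12:111076179-111076996) without a factor peak. Its H3K27ac covered 8.54 and 9.57 kb in IkE5 cells, against 12.8 and 12.4 kb in WT cells. The groups did not overlap, and the log2 difference was -0.46 ± 0.24 (limma adjusted p = 0.503).

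In the NCoR complex, Tbl1xr1 had 2 WT-only factor regions, p300 at its start (chr3:22076549-22077096) and NFAT1 13.4 kb inside (chr3:22089740-22090347). It had an IkE5-only H3K27ac region 4.22 kb upstream (chr3:22071783-22073089) and a WT-only one 109 kb inside (chr3:22185709-22186283), both without a factor peak. The WT-only p300 call was lost with gaps of up to 500 bp joined. H3K27ac covered 24.4 and 14.7 kb in IkE5 cells, against 17.4 and 10.3 kb in WT cells, so the groups overlapped (log2 difference 0.45 ± 0.23, limma adjusted p = 0.486). Ncor1, the scaffold of the complex, had a WT-only p300 region 9.18 kb outside the gene over Pigl (chr11:62466593-62467134), where Foxp3 and H3K27ac were in all 4 libraries. Hdac3, the deacetylase of NCoR, had no genotype-only region, and its H3K27ac covered 6.95 and 6.27 kb in IkE5 cells, against 6.76 and 4.34 kb in WT cells, with overlap.

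Of the PRC2 genes, Ezh2, the methyltransferase of dividing cells, was the one with genotype-only regions. An IkE5-only p300 region (chr6:47552189-47552715) lay in an IkE5-only H3K27ac region (chr6:47552097-47553434) deep in the gene, at a place with Ikaros in 1 list and NFAT1 in both WT lists and 1 IkE5 list. It was the 1 site at these genes where p300 and H3K27ac were both IkE5-only. A second H3K27ac region (chr6:47587293-47588852) was IkE5-only, and a p300 region (chr6:47560772-47561335) over Ikaros, Foxp3 and H3K27ac was WT-only. The WT-only p300 call was lost with gaps of up to 500 bp joined. Both H3K27ac calls were lost with H3K27ac peaks of at least 1000 bp. H3K27ac over Ezh2 covered 11.4 and 7.63 kb in IkE5 cells, against 11.3 and 5.50 kb in WT cells, with overlap. Suz12, a core subunit, covered 4.02 and 4.01 kb in IkE5 cells, against 3.33 and 2.80 kb in WT cells, without overlap (log2 difference 0.28 ± 0.20, limma adjusted p = 0.694). Ezh1, the methyltransferase of resting cells, covered 0.988 and 0.891 kb in IkE5 cells, against 1.11 and 1.70 kb in WT cells, without overlap (log2 difference -0.34 ± 0.27, limma adjusted p = 0.757).

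Hdac4 had 8 genotype-only regions, the most of the 36 genes, and it also had the most Ikaros peaks. The number of regions was not corrected for the length of the gene. For Foxp3 a region at its start (chr1:92180478-92181004) was IkE5-only and one 176 kb inside (chr1:92004031-92004582) was WT-only. For NFAT1, chr1:92015221-92015809 was IkE5-only and chr1:92080003-92080617 WT-only, and p300 was WT-only at chr1:92190370-92190927. H3K27ac was IkE5-only at chr1:92148461-92149335 and WT-only at chr1:91986029-91986854 and chr1:91989370-91990053. Both WT-only H3K27ac calls were lost with gaps of up to 500 bp joined. The covered length was 32.4 and 34.4 kb in IkE5 cells, against 41.2 and 30.6 kb in WT cells, so gains and losses of single regions went with overlapping totals. Hdac5 and Hdac7 had no genotype-only region. Hdac5 covered 7.34 and 5.95 kb in IkE5 cells, against 9.04 and 6.16 kb in WT cells, and Hdac7 34.8 and 27.1 kb in IkE5 cells, against 43.3 and 27.02 kb in WT cells, both with overlap.

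**Figure D3:**
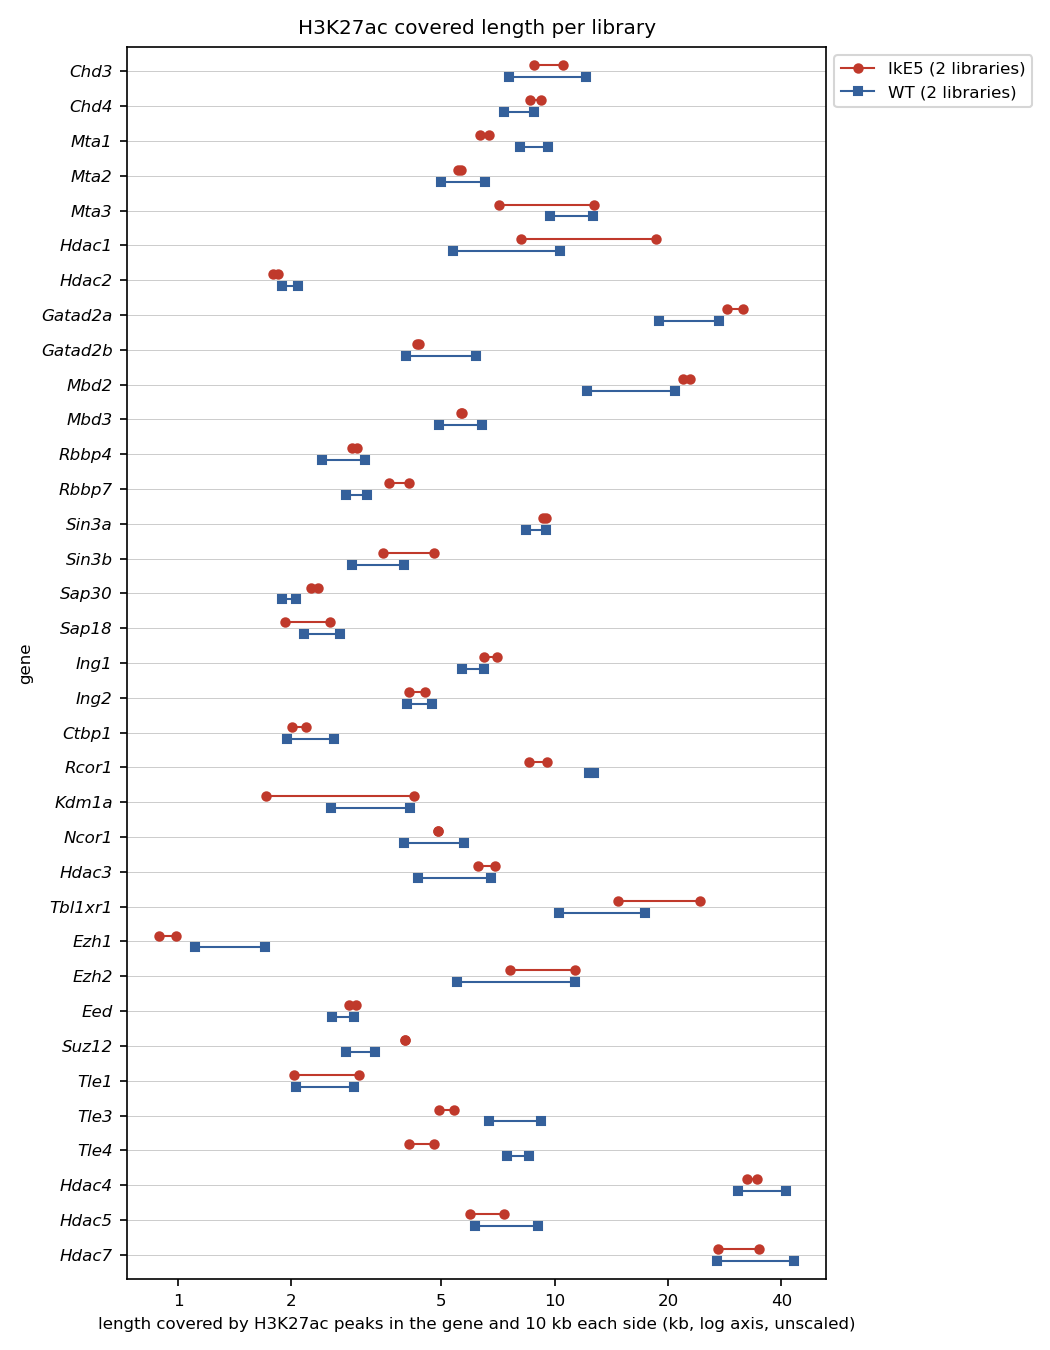
Length covered by H3K27ac peaks over each gene with its 10 kb margins (kb, log axis, not scaled between libraries), for the 35 corepressor genes with any such peak, 2 IkE5 libraries (red circles, above) and 2 WT libraries (blue squares). Tle3, Tle4, Rcor1 and Mta1 have both IkE5 points left of both WT points, and Gatad2a, Mbd2 and Suz12 have them to the right.

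Over the whole list, no corepressor gene passed the test for H3K27ac covered length. In limma on log2(scaled covered length + 1000 bp), adjusted over 12714 genes, 0 of the 35 corepressor genes were called at 0.05 in either direction, against 0.739% of all genes above and 0.385% below WT. An unadjusted p under 0.05 was found for 2 of the 35, Tle4 and Tle3. The median log2 difference was -0.02 for the list and -0.02 for all genes tested, and 16 of 35 estimates were above 0, against 46.3% of all genes. Before scaling, both IkE5 libraries lay above both WT libraries at 6 genes (Gatad2a, Ing1, Mbd2, Rbbp7, Sap30 and Suz12), against 17.1% of all genes. They lay below at 6 (Ezh1, Hdac2, Mta1, Rcor1, Tle3 and Tle4), against 19.9%, and at 24 genes the groups overlapped. Scaling changed this at several genes. After it, Hdac1, Hdac3, Sin3b and Tbl1xr1 also lay above without overlap, and Ctbp1, Gatad2b, Hdac5 and Hdac7 below. The groups then overlapped at Ezh1, Hdac2, Ing1 and Sap30. The share of all genes without overlap after scaling was not counted. By complex, the estimates were above 0 at 6 of 13 NuRD genes, 4 of 6 Sin3, 3 of 3 NCoR and 3 of 4 PRC2 genes. They were above 0 at none of the 3 CtBP and CoREST genes tested, the 3 Groucho genes and the 3 class IIa deacetylase genes.

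**Figure D4:**
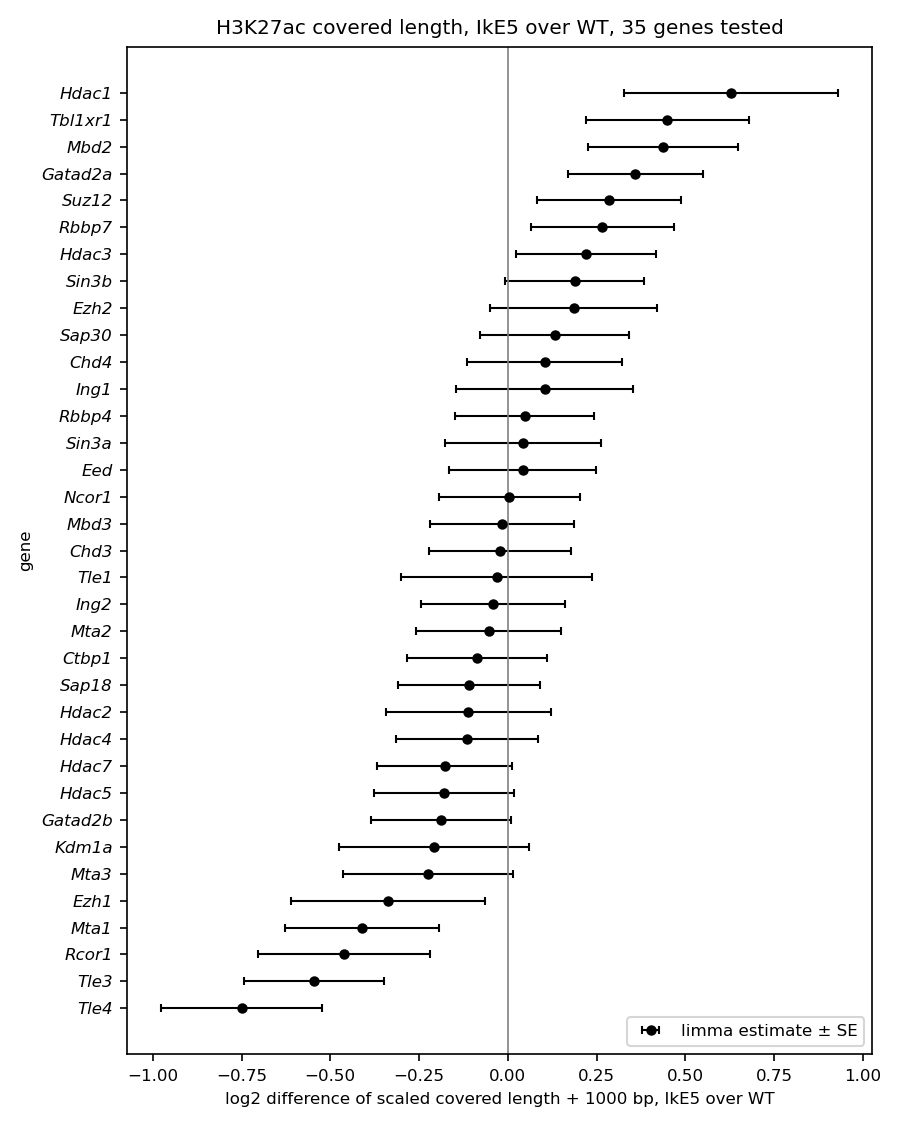
Log2 difference of scaled H3K27ac covered length, IkE5 over WT, with its standard error from limma (4 libraries), for the 35 corepressor genes tested. Hdac1 is highest at 0.63 and Tle4 lowest at -0.75, and none passed an adjusted p of 0.05.

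The H3K27ac regions that differed between the genotypes were mostly away from the start of the gene, and most overlapped no factor peak. Overlap alone was counted. The distance to the nearest factor peak was not measured, so a region without overlap may still lie close to one. Of the 9 IkE5-only and 5 WT-only regions at corepressor genes, none lay within 1 kb of the start of the gene, where a start was known for 8 and 5 of them. Of the 81 regions present in all 4 libraries with a known start, 28 did. No factor peak of any library overlapped 6 of the 9 IkE5-only regions and all 5 WT-only regions, against 14 of the 95 regions present in all 4 libraries. The other 3 IkE5-only regions, 2 in Ezh2 and 1 in Hdac4, overlapped a factor peak. Of Ikaros alone, 8 of the 9 IkE5-only and all 5 WT-only regions had no peak, against 84.6% and 73.3% of these classes in the genome, and 18 of the 95 common regions had none, against 15.9%. The lack of Ikaros at the regions that differed is thus the usual state of these classes. The regions common to all libraries are longer, and length was not matched.

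Ikaros was also set against the other factors within WT cells. Of the Foxp3 regions in both WT lists at these genes, 38 of 45 (84.4%) overlapped Ikaros in both lists, and 86.4% did so in the genome. For p300 it was 22 of 27 (81.5%, against 80.9%), for NFAT1 11 of 18 (61.1%, against 73.2%) and for H3K27ac 54 of 117 (46.2%, against 52.2%).

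Other corepressor genes, taken as a separate list of the remaining subunits and deacetylases, were read from the same fit. Of 38 tested, 2 fell and 0 rose, against 0.385% of all genes below and 0.739% above WT. The H3K27ac covered length of Hdac9, a class IIa deacetylase gene and a paralogue of Hdac4, fell by 2.49 ± 0.38 on the log2 scale (SE, limma adjusted p = 0.0243). Hdac9 had an IkE5-only as well as a WT-only H3K27ac region. For Ehmt1, a histone H3 lysine 9 methyltransferase gene, the covered length fell by 1.04 ± 0.19 (limma adjusted p = 0.0489). The median of that list was -0.02. Of 29 coactivator and BAF remodeller genes, 1 fell and 0 rose, against the same shares of all genes. It was Kat6b, an acetyltransferase gene, which fell by 1.14 ± 0.21 (limma adjusted p = 0.0490), and the median was -0.11. Calls below WT depended on the scaling: over all genes there were 49, but 3 with median-ratio scaling and 0 without scaling. Hdac9, Ehmt1 and Kat6b were thus not called without scaling, and whether they were among those 3 is not given here. Whether these lists differ from the 36 genes was not tested.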

How the data were processed

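The deposited files were 18 peak lists, 1 per library, of chromosome, start and end without score or header. The 4 inputs have no list and were not used here. Per the submitters' processing notes the authors used FastQC, Bowtie2, MACS2, bedtools and HOMER on mm10. Which of these tools called the peaks, at which threshold and with which control, are points not given in the sources used here. Factor peaks were 500 bp wide, with 1 narrower peak in 4 lists.

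The 36 genes, the other gene lists and the rules were chosen with earlier results of these data known. Gene positions were RefSeq's for mm10. Peaks of a target were joined into regions at an overlap of at least 1 bp. H3K27ac in all 4 libraries at a site refers to the joined region, which a single library may cover only in part. H3K27ac covered length per gene, 10 kb included on each side, was scaled to the library's total and fitted with limma 3.58.1 (R 4.3.3, trended prior) on log2(length + 1000 bp), keeping genes whose mean reached 1000 bp. Benjamini-Hochberg adjustment was made over all genes and 0.05 was the threshold. Such a difference understates the change of genes with short coverage. Single shares were compared by 2-sided exact permutation tests over 4 libraries. Since the labels name no separate animals, the spread behind a p-value is that of these libraries and may be technical. No library copied another: any pair of lists shared at most 0.745% of its peaks as identical intervals.

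Values in every library are given for genes with a genotype-only region, for the 5 highest and 5 lowest log2 differences and for the 5 genes with most Ikaros peaks, and other genes were added for completeness of each complex after their values were seen. Promoters shown have Ikaros in both lists and a genotype-only p300 or NFAT1 region, and Sap30, the window with most factor lists, was added. Of the other lists, genes past 0.05 are named. RefSeq promoter windows for Chd3, Hdac1, Hdac3, Mbd2 and Mta3 were not used here. The B cell marker list is not reported here.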

Additional observations from a re-analysis of the deposited data

How the results depend on the processing

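No corepressor gene was called under the other pseudocounts, filters and scalings, with gene bodies alone or with H3K27ac peaks of at least 1000 bp. The 10 genes with the highest and lowest differences kept their sign in every setting that could be fitted. They were picked as extremes of a fit on the same libraries, so their signs were likely to hold. Of all genes 143 were called in the fit reported, 61 with a pseudocount of 200 bp, 78 without a filter, 0 without scaling (1156 at unadjusted p under 0.05), 44 with wide peaks and 22 with median-ratio scaling. That scaling gave 19 above and 3 below WT, against 94 and 49. Leaving out 1 library gave 324 (IkE5 library 1), 631 (IkE5 library 2), 536 (WT library 1) and 126 (WT library 2), and 0 to 1 corepressor genes. The 1 was Hdac1, whose adjusted p ran between 0.0283 and 1.00 over all settings. The lone library left is assumed to vary like the others. With the library number as a replicate block 1250 genes were called, 3 of them corepressor genes: Tle4 (limma adjusted p = 0.0142), Tle3 (0.0460) and Hdac1 (0.0476). Differences between the numbers correlated between the genotypes across 12714 genes (r = 0.460), but nothing in the labels ties the 2 pairs, so they share only a number. Presence of peaks was not compared within library numbers. The list's median log2 difference lay between -0.12 and 0.07 when 1 library was left out.

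Of 37 calls of a gene, target and class, 22 held in every setting and 7 were lost only with gene bodies alone. Leaving out a library cannot remove such a call, so those settings are no check of it. With gene bodies alone 2 genes had a WT-only Foxp3 region and 3 an IkE5-only H3K27ac region, and with gaps of 500 bp joined 2 had a WT-only H3K27ac region. Leaving out a library loosens a class by construction, for all genes alike. Without 1 library the IkE5-only counts lay between 4 and 13 for Foxp3, 5 and 10 for p300, 2 and 5 for NFAT1 and 5 and 19 for H3K27ac, against 14.7% to 28.7%, 12.2% to 31.3%, 7.53% to 14.3% and 12.9% to 39.8% of all genes with a region. The WT-only counts lay between 7 and 16 for Foxp3, 9 and 12 for p300, 8 and 12 for NFAT1 and 7 and 26 for H3K27ac, against 13.4% to 25.4%, 16.98% to 33.1%, 33.8% to 62.1% and 18.4% to 47.0%. The difference in the share of peaks at the genes (IkE5 minus WT, percentage points) lay between -0.031 and -0.019 for Foxp3, -0.056 and 0.0247 for p300 (reversed without IkE5 library 1), -0.112 and 0.0014 for NFAT1 (reversed without IkE5 library 2) and -0.0023 and 0.021 for H3K27ac (reversed without IkE5 library 1). Read depth is unknown, so absence from a list is not absence of binding.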
